A study of Mus musculus with 2 samples.

Results

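The miR-125 and miR-99/100 families were followed in J1 cells, an established mouse embryonic stem cell (mESC) line. The members were the 6 annotated mouse hairpins Mir125a, Mir125b-1, Mir125b-2, Mir99a, Mir99b and Mir100, of 1174 named miRNA hairpins in the GENCODE M21 annotation, and a sequenced tag was counted for a member when it matched that hairpin perfectly over its whole length. The cells grew on gelatin without feeders in medium with knockout serum replacement and LIF (1000 U/mL), and received for 24 h either 1 µM PD0325901 (PD), an inhibitor of the kinase MEK, or the solvent DMSO alone as control. Each of the 2 small RNA libraries, 1 for PD and 1 for control, was made from pooled RNA of 3 independent experiments, so no difference below has a replicate check. The intervals and tests cover read sampling only, compare these 2 libraries rather than the 2 conditions, and treat PCR copies as separate reads.

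miR-125 is the vertebrate counterpart of lin-4, the first miRNA found in worms, where it times developmental steps. miR-99 and miR-100 are best known as repressors of mTOR and other growth factor signaling genes, and let-7, encoded beside both families, promotes differentiation and is held back in stem cells by the RNA-binding protein Lin28. A mature miRNA finds its targets mainly through its seed, bases 2 to 8 counted from its 5′ end, so members with one seed can share many targets whichever locus they come from.

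The mature sequences of the 5p arms are printed to show which members share a seed (capitals). The 2 most abundant 3p arms of the members are added because they were sequenced too. The sequences are those of RefSeq (GRCm38.p6), where all 6 hairpins were found.
miR-125a-5p: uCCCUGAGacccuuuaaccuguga
miR-125b-5p: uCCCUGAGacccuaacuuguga
miR-99a-5p: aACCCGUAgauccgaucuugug
miR-99b-5p: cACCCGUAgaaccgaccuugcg
miR-100-5p: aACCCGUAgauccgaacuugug
miR-125a-3p: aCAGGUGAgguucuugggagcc
miR-99b-3p: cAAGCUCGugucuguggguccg
Both miR-125 forms share the seed CCCUGAG and are identical over their first 13 bases. The 3 miR-99/100 forms share the seed ACCCGUA. Counted from 1 at the 5′ end, miR-99a-5p and miR-100-5p differ at 1 base (U16A, miR-99a first), while miR-99a-5p and miR-99b-5p differ at 4 (A1C, U11A, U16C and U21C). No member tag also matched a hairpin outside the families. The loci Mir125b-1 and Mir125b-2 give the same miR-125b-5p, so its reads cannot be assigned to either locus.

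The 6 hairpins lie in 3 clusters, each with a let-7 gene in between, and all on the plus strand (GENCODE M21, GRCm38). Mir99b (chr17:17830188-17830257) and Mir125a (chr17:17830812-17830879) enclose Mirlet7e within 692 bases of the protein-coding gene Spaca6, Mir99b in an intron and Mir125a overlapping an exon of 1 of the 3 Spaca6 transcripts that span it. Mir100 (chr9:41531425-41531504) and Mir125b-1 (chr9:41581926-41582002) stand with Mirlet7a-2 over 50578 bases, in introns of the noncoding genes 3110039I08Rik and Gm49317, and Mir125b-1 also overlaps the exon of the sense-intronic transcript Gm28119. Mir99a (chr16:77598936-77599000) and Mir125b-2 (chr16:77646273-77646343) stand with Mirlet7c-1 over 47408 bases in introns of the noncoding gene Mir99ahg. Mir125b-2 also overlaps an exon of the transcript C130023A14Rik on the same strand. The 10 tags of miR-125a-5p, all of its 785 control reads and 697 PD reads, are also contained in the Spaca6 transcript. Tags that match Mir125b-1, with 109 and 149 reads, are contained in Gm28119, and 5 and 4 of these reads match no other hairpin. The lengths of all these tags are those of mature miRNAs, but a sequence match cannot separate these sources.

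The libraries held 18870345 (control) and 20944808 (PD) clean reads, of which 11.56% and 10.08% matched a named hairpin. Members took 7832 control reads and 8641 PD reads, 0.359% and 0.409% of the hairpin reads, as 61 distinct tags. Values are RPM (read counts per 1000000 clean reads of the library), and an arm was taken as detected at 1 RPM or more in either library. Of the member arms, miR-99a-3p and miR-100-3p had 0 reads in both libraries, which allows up to 0.159 RPM in control and 0.143 RPM in PD (3 reads). The 6 loci gave 9 distinct mature arms with reads, and 5 of these were detected. All member reads lay on a 5p or a 3p arm, and none in a loop. The labelled cell type was checked with miRNAs of embryonic stem cells. Of the 9 listed hairpins, 8 were annotated under the listed name and all 8 had reads. Their summed level was 18828 RPM in control and 16083 RPM in PD. Mir292a had no hairpin of that name, so the sum leaves out miR-292-3p (25654 and 27780 reads) and miR-292-5p (11241 and 13744 reads). Mir290a carried most of the sum (10996 and 9086 RPM), while Mir302a (10.4 and 17.7 RPM) and Mir302d (2.91 and 6.78 RPM) had more in PD and Mir367 had 1 and 6 reads.

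miR-99b-5p was by far the most abundant member. It had 6188 reads (328 RPM) in control and 7021 reads (335 RPM) in PD, and it ranked 51 among the 518 detected mature arms in control. miR-125a-5p, from the same cluster, had 785 reads (41.6 RPM) in control and 697 reads (33.3 RPM) in PD. The 2 libraries were thus close for miR-99b-5p, while the control library was the higher one for miR-125a-5p. miR-99b-3p, the partner strand of miR-99b-5p, had 696 reads (36.9 RPM) and 711 reads (33.9 RPM).

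The other members were low or absent. miR-125b-5p, the form best known from neurons, muscle and blood, had 106 reads (5.62 RPM) in control and 145 reads (6.92 RPM) in PD. miR-125a-3p had 44 reads (2.33 RPM) and 47 reads (2.24 RPM). Mature reads of Mir100 and Mir99a were few in both libraries, and transcription of the loci was not measured. miR-100-5p had 6 reads in control and 14 in PD, and miR-99a-5p had 4 and 1. miR-125b-1-3p had 3 reads and 4 reads, and miR-125b-2-3p had 0 reads and 1 read. These last 4 arms stayed below 1 RPM in both libraries.

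**Figure D1:**
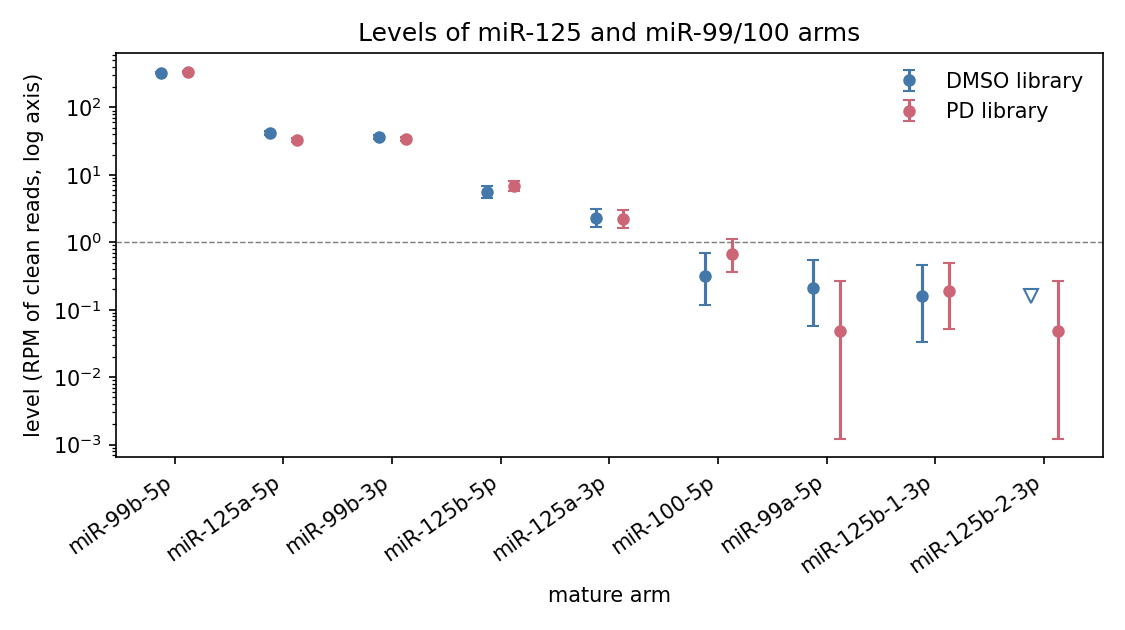
Level of each mature arm with reads, in RPM of clean reads on a log axis, in the DMSO and PD libraries, with 95% Poisson intervals (bars). The dashed line is 1 RPM and the open triangle marks the level of 3 reads where an arm had 0 reads. miR-99b-5p stands alone at 328 and 335 RPM, and the arms of the chromosome 9 and 16 loci other than miR-125b-5p lie below the line.

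In control the order was miR-99b-5p, miR-125a-5p, miR-99b-3p, miR-125b-5p and miR-125a-3p. Neighbouring levels were told apart when their 95% Poisson intervals did not overlap. The interval of miR-125a-5p (38.7 to 44.6 RPM) overlapped that of miR-99b-3p (34.2 to 39.7 RPM), so this pair had no clear order. In PD they exchanged places, again with overlapping intervals (30.9 to 35.8 RPM for miR-125a-5p, 31.5 to 36.5 RPM for miR-99b-3p). miR-125b-5p (4.60 to 6.79 RPM in control) and miR-125a-3p (1.69 to 3.13 RPM) were separate from each other and from the arms above them in both libraries. Among the 4 arms below 1 RPM, the intervals of neighbours in the order overlapped. Levels of different sequences also carry the ligation and PCR efficiency of each sequence, which was not measured.

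The same seed therefore came mostly from 1 locus in each family. The shares given next are of all reads of a family, which include the 3p arms with their other seeds. miR-99b-5p made up 89.8% of the miR-99/100 family reads in control (Wilson interval 89.0 to 90.5) and 90.6% in PD (90.0 to 91.3), and miR-99b-3p nearly all the rest. In the miR-125 family, miR-125a-5p made up 83.7% of the reads in control (81.2 to 85.9) and 78.0% in PD (75.1 to 80.6). The share of miR-125b-5p was 11.3% in control (9.43 to 13.5) and 16.2% in PD (13.9 to 18.8), with intervals that did not overlap. One detected non-member, miR-351-5p of the X-linked Mir351 locus, carried the miR-125 seed, with 37 reads (1.96 RPM) in control and 59 reads (2.82 RPM) in PD. Its fold change of 1.44 (95% interval 0.937 to 2.23) did not pass the exact binomial test (adjusted p = 0.183). No detected non-member carried the miR-99/100 seed.

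The comparison of PD with control asked whether 24 h of MEK inhibition went with other levels of these miRNAs. None of the 5 detected member arms differed by 1.5-fold or more in either direction, against 19.9% of the 518 detected arms. By the exact binomial test on reads, 1 of the 5 members was lower in PD (adjusted p under 0.05 over all 518 arms), against 36.1% of all detected arms, and 0 of 5 were higher, against 9.27%; at an unadjusted p under 0.05 the member counts were the same. The counts of 5 are too small to be set against these shares.

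miR-125a-5p was the member called lower. Its level in PD was 0.800 times that in control (95% interval 0.721 to 0.887, log2 fold change -0.32, adjusted p = 7.67e-05, exact binomial test with Benjamini-Hochberg adjustment). miR-99b-5p, whose hairpin comes first within the same 692 bases, had a fold change of 1.02 (0.988 to 1.06, adjusted p = 0.330, exact binomial test). On the scale of clean reads, the interval of miR-99b-5p holds no change larger than 1.06-fold in either direction, which is the tightest bound of any member. Other scalings, given below, put this arm outside that interval, at up to 1.24. miR-99b-3p had a fold change of 0.920 (0.828 to 1.02, adjusted p = 0.210, exact binomial test). The wide interval of miR-125a-3p, 0.624 to 1.49 around 0.962, shows that its 44 and 47 reads could not resolve a change of this size.

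miR-125b-5p gave the largest estimate among the detected members, 1.23-fold with an interval of 0.953 to 1.60, and did not pass the exact binomial test (adjusted p = 0.201). miR-100-5p, at 6 and 14 reads, had a ratio of 2.10 with an interval of 0.759 to 6.67. Neither ratio was separate from 1 at this depth. Summed over the family, miR-125 was at 49.7 RPM in control and 42.7 RPM in PD, a fold change of 0.859 (0.783 to 0.942), and miR-99/100 at 365 RPM and 370 RPM, a fold change of 1.01 (0.980 to 1.05). In pooled bulk RNA, fewer cells with a miRNA and less of it per cell cannot be told apart.

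Most detected arms lay below 1 on this scale. The median fold change of all 518 was 0.888 (quartiles 0.754 and 1.04), and the median of the 5 members was 0.962. Relative to the median of all arms, miR-125a-5p was at 0.901, miR-99b-3p at 1.04, miR-125a-3p at 1.08, miR-99b-5p at 1.15 and miR-125b-5p at 1.39. The median log2 fold change was -0.17 on clean reads and moved to -0.01 after TMM normalization and to 0.11 when RPM was taken of clean reads of 20 to 24 nt, which made up 63.03% of clean reads in control and 52.04% in PD. Calls over all arms moved with it, from 48 higher and 187 lower on clean reads to 101 higher and 103 lower after TMM.

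The direction of 3 members was the same under every scaling tried. miR-125a-5p was lower, with fold changes of 0.800 to 0.969, but its adjusted p in the exact binomial test was 0.0825 after TMM and 0.687 on reads of 20 to 24 nt. miR-99b-5p was higher, 1.02 on clean reads and 1.14 after TMM (adjusted p = 7.68e-14, exact binomial test), up to 1.24. miR-125b-5p was higher as well, 1.23 on clean reads and 1.38 after TMM (adjusted p = 0.0311, exact binomial test), up to 1.49. miR-99b-3p and miR-125a-3p turned from below 1 to above 1 under each of the other 4 scalings. No detected member reached 1.5-fold under any of them. Of all 518 detected arms, 103 did so on clean reads, and between 77 (TMM) and 87 (reads of 20 to 24 nt) under the other 4 scalings.

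**Figure D2:**
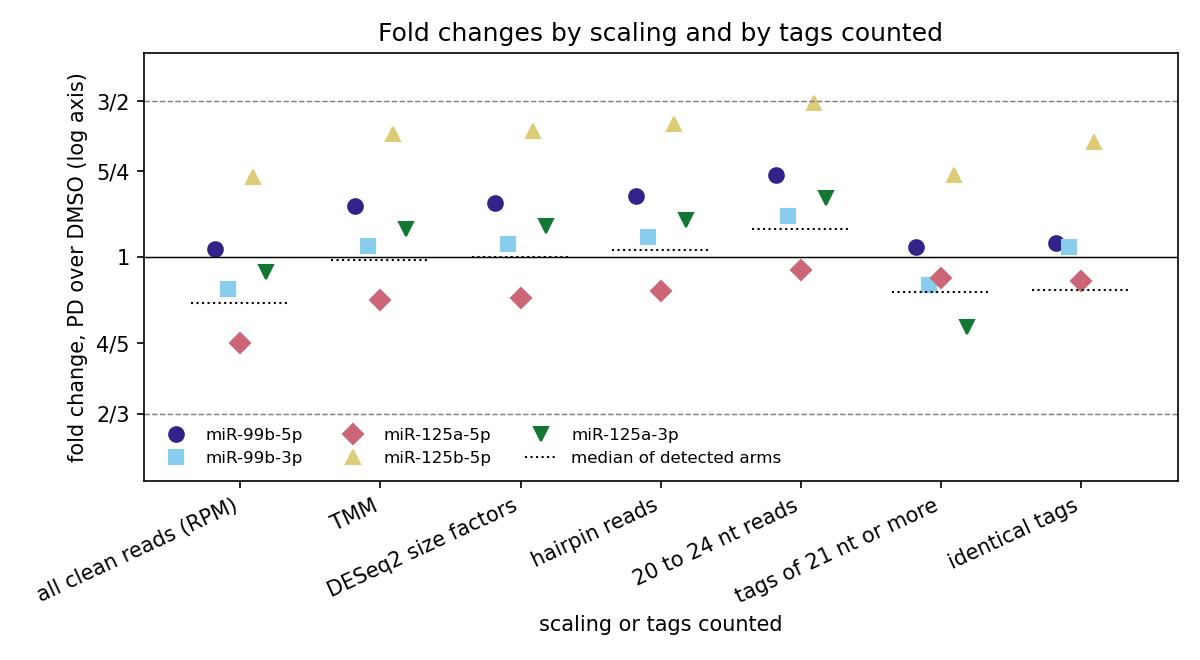
Fold change of the 5 detected members, PD over DMSO on a log axis, under 5 scalings and 2 stricter rules for the tags counted. Dotted lines are the median of all detected arms under the same setting, and dashed lines mark 1.5-fold; miR-125a-3p was under 1 RPM with identical tags and has no point there. miR-125b-5p is highest throughout, from 1.23 to 1.49, and miR-125a-5p stays below 1, from 0.800 to 0.969.

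Ratios between members within a library do not depend on the scaling. The ratio of miR-99b-5p to miR-125a-5p reads was 7.88 in control (95% interval 7.32 to 8.50) and 10.1 in PD (9.32 to 10.9). The ratio of miR-125a-5p to miR-125b-5p was 7.41 in control (6.04 to 9.16) and 4.81 in PD (4.01 to 5.79). In both cases the intervals of the 2 libraries did not overlap, so with all tags counted the reads of the members did not change in equal proportion. let-7e-5p, encoded between Mir99b and Mir125a, had 17868 reads (947 RPM) and 20302 reads (969 RPM). The ratio of miR-99b-5p to let-7e-5p was 0.346 in both libraries, whereas miR-125a-5p to let-7e-5p was 0.0439 (0.0409 to 0.0472) in control and 0.0343 (0.0318 to 0.0370) in PD.

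The hairpins of Mir99b and Mir125a, the loci with most member reads, show where these reads lie (GENCODE M21 transcripts, the most frequent tag of each arm in capitals).
Mir99b: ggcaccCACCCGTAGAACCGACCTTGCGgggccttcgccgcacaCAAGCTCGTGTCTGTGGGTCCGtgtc
Mir125a: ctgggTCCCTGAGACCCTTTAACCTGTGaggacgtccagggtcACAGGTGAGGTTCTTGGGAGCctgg
The 5p arm dominated in both. Mir125a gave 17.8 reads of its 5p arm for each 3p read in control and 14.8 in PD, a ratio of ratios of 0.831 (0.544 to 1.27, adjusted p = 0.687, Fisher's exact test). Mir99b gave 8.89 and 9.87, a ratio of 1.11 (0.995 to 1.24, adjusted p = 0.182, Fisher's exact test). Neither passed the test nor reached 1.5-fold. Of the 266 hairpins with 10 or more reads of each arm over both libraries together, 33.1% reached 1.5-fold.

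The reads of miR-125a-5p differed between the libraries in length. The tags that begin at its first base form a ladder of 3′ ends, printed with the bases past position 18 in capitals.
18 nt: tccctgagaccctttaac
19 nt: tccctgagaccctttaacC
20 nt: tccctgagaccctttaacCT
21 nt: tccctgagaccctttaacCTG
22 nt: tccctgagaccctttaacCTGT
23 nt: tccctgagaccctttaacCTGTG
24 nt: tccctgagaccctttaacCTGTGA
The 20 nt tag, 4 bases shorter than the RefSeq form, was the most frequent one in control with 217 reads and had 119 reads in PD, a fold change in RPM of 0.494 (0.392 to 0.621). The 21 nt tag had 74 reads and 47 reads (0.572, 0.388 to 0.836). The 22 nt tag had 164 and 161 reads (0.884, 0.707 to 1.11) and the 23 nt tag 184 and 192 (0.940, 0.764 to 1.16), both with intervals that hold 1. The 24 nt tag, with 109 and 161 reads, was the only one of the ladder with a higher RPM in PD (1.33, 1.04 to 1.71). The lower level of miR-125a-5p in PD thus lay in its shorter tags.

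Tags of 20 nt or less made up 32.0% of miR-125a-5p reads in control (Wilson interval 28.8 to 35.3) and 19.4% in PD (16.6 to 22.5), and the mean length was 21.7 nt and 22.2 nt. Without the tags under 21 nt, the fold change of miR-125a-5p was 0.948 and was no longer called (adjusted p = 0.532, exact binomial test). On the same tags the ratio of miR-99b-5p to miR-125a-5p was 11.4 (10.4 to 12.5) in control and 12.4 (11.3 to 13.5) in PD, with overlapping intervals. The ratio of miR-125a-5p to let-7e-5p was then 0.0301 (0.0275 to 0.0328) and 0.0278 (0.0255 to 0.0302), and that of miR-125a-5p to miR-125b-5p was 5.13 (4.16 to 6.40) and 3.93 (3.26 to 4.76), both also overlapping.

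Short tags were fewer in PD across the miRNAs as a whole. Of all hairpin reads, 9.486% were of 20 nt or less in control and 5.379% in PD, and the RPM of all 20 nt hairpin reads changed 0.561-fold. Among the 131 arms with 1000 or more reads in each library, the share of tags of 20 nt or less was lower in PD in 105, by a median of 0.774 percentage points over all 131. As a ratio of PD to control, this share was 0.606 for miR-125a-5p, 0.567 for all hairpin reads and 0.700 in the median of the 130 of these arms with any such tag in control (quartiles 0.510 and 0.895). The proportional fall of miR-125a-5p was thus within the middle range of the abundant arms, and its large fall in percentage points goes with its high share of short tags in control. What set the length of the reads in each library was not tested.

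**Figure D3:**
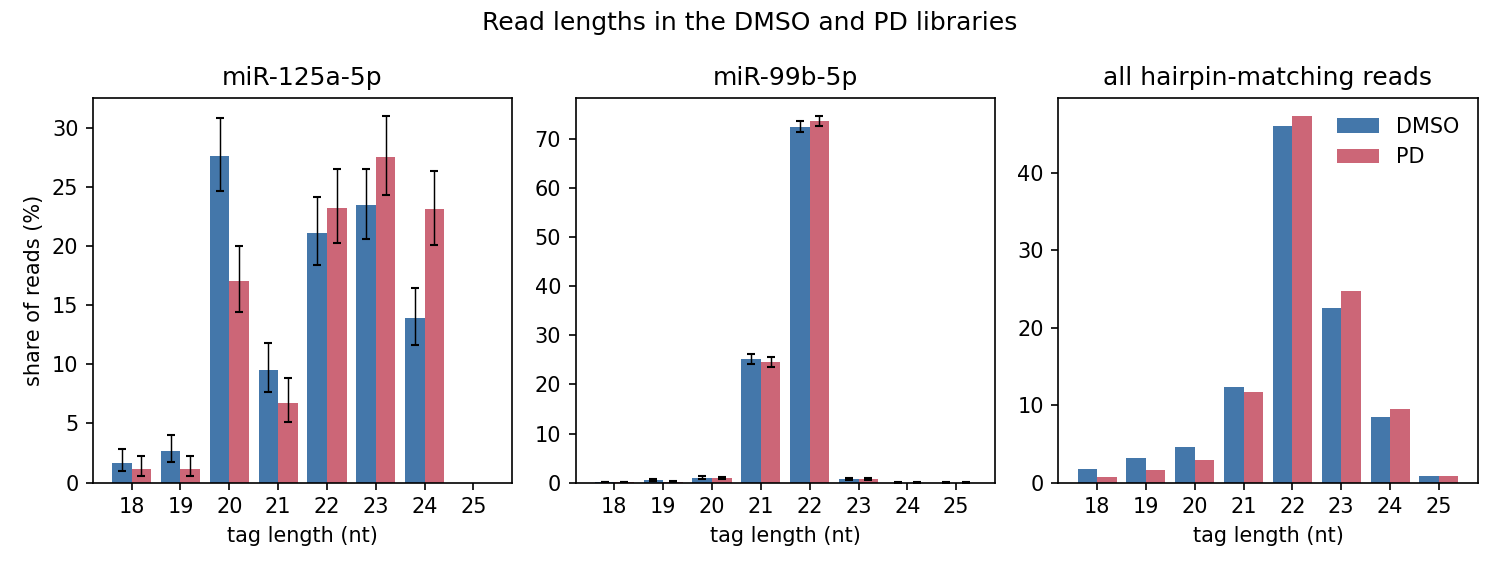
Share of reads by tag length in nt for miR-125a-5p, for miR-99b-5p and for all reads that match a named hairpin, in the DMSO and PD libraries. Bars start at 0 and the scale differs between panels. Error bars, drawn in the panels of miR-125a-5p and miR-99b-5p only, are 95% Wilson intervals. The 20 nt bar of miR-125a-5p is 27.6% in DMSO and 17.1% in PD, while miR-99b-5p keeps 72.5% and 73.6% of its reads at 22 nt.

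miR-99b-5p had a sharper 3′ end. Reads of 22 nt numbered 4488 in control (72.5%) and 5168 in PD (73.6%), and tags of 20 nt or less were 1.52% and 1.07%. miR-125b-5p was sharper still, with 84.9% of reads at 22 nt in control and 93.1% in PD. miR-99b-3p had 7.33% and 6.19% of its reads at 20 nt or less. Among the detected 5p members miR-125a-5p had the largest share of short tags in each library, and miR-125a-3p also had many short tags (38.6% of 44 reads and 46.8% of 47).

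The 5′ end, which fixes the seed, was nearly constant. The share of reads that began at the first base of the mature form was 99.5% and 99.9% for miR-125a-5p, 99.1% and 98.9% for miR-99b-5p, 99.6% and 99.4% for miR-99b-3p, and 99.1% and 99.3% for miR-125b-5p. miR-125a-3p had the least uniform start, with 4 of 44 reads in control and 10 of 47 in PD beginning 1 base later.

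Nucleotides that the hairpin does not encode are often added to the 3′ end of a mature miRNA by terminal nucleotidyl transferases. Tags with such tails of up to 3 bases were counted apart from the levels above. Their shares are of the reads of an arm that begin at its first base, together with its A-tailed and U-tailed reads. A tails were 10.1% and 10.2% for miR-99b-5p and 10.6% and 11.4% for miR-99b-3p in control and PD. U tails were 5.61% and 6.31% for miR-99b-5p and 3.35% and 4.97% for miR-99b-3p. For miR-125a-5p the A tails were 1.13% and 1.26%, and the U tails 0.878% and 1.12%. Over the 131 abundant arms the median was 3.30% and 3.34% for A tails and 1.71% and 1.85% for U tails. Both arms of Mir99b were thus above the median and miR-125a-5p below it in each library. The 24th base of miR-125a-5p is itself an A, so an A added to its 23 nt tag cannot be told apart from the encoded one. The same holds for a U added to its 19 nt or 21 nt tag, and for a U added to the 22 nt tag of miR-99b-3p. The place of these arms against the median thus depends in part on the hairpin sequence. The most frequent tailed tags of miR-99b-5p, with the added base in capitals, were these.
miR-99b-5p with A: cacccgtagaaccgaccttgcgA
miR-99b-5p with U: cacccgtagaaccgaccttgcgT
The first had 444 reads in control and 562 in PD, and the second 394 and 503.

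The let-7 and miR-98 hairpins were taken as the list of neighbours. Of their 15 arms with reads, 9 were detected, and their median fold change was 0.939. None of the 9 differed by 1.5-fold or more (19.9% of all detected arms). By the exact binomial test at an adjusted p under 0.05, 5 were lower (36.1% of all) and 3 higher in PD (9.27% of all). let-7e-5p, the neighbour of Mir99b and Mir125a, had a fold change of 1.02 (1.00 to 1.04, adjusted p = 0.0497, exact binomial test), close to that of miR-99b-5p. let-7a-5p, encoded by Mirlet7a-2 of the chromosome 9 cluster and by Mirlet7a-1, was at 1811 RPM and 1683 RPM. let-7c-5p, encoded by Mirlet7c-1 of the chromosome 16 cluster and by Mirlet7c-2, was at 3239 RPM and 2722 RPM.

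The reads that match 1 hairpin alone were also counted for the 3 clusters. Mirlet7a-2, Mirlet7c-1 and both Mir125b hairpins share their main product with another locus, so few such reads are left to them by construction. On chromosome 17, Mir99b had 6884 such reads in control and 7732 in PD, Mirlet7e 17869 and 20305, and Mir125a 829 and 744. On chromosome 9, Mir100 had 6 and 14, Mirlet7a-2 10 and 6, and Mir125b-1 5 and 4. On chromosome 16, Mir99a had 4 and 1, Mirlet7c-1 36 and 32, and Mir125b-2 0 and 1. Outside chromosome 17 no hairpin of the clusters had more than 36 such reads in a library. The shared let-7a-5p, let-7c-5p and miR-125b-5p reads could come from either of their loci, so these counts do not compare whole clusters. All reads of Mir99b, Mir100 and Mir99a matched 1 hairpin alone, so for these hairpins the counts can be compared.

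**Figure D4:**
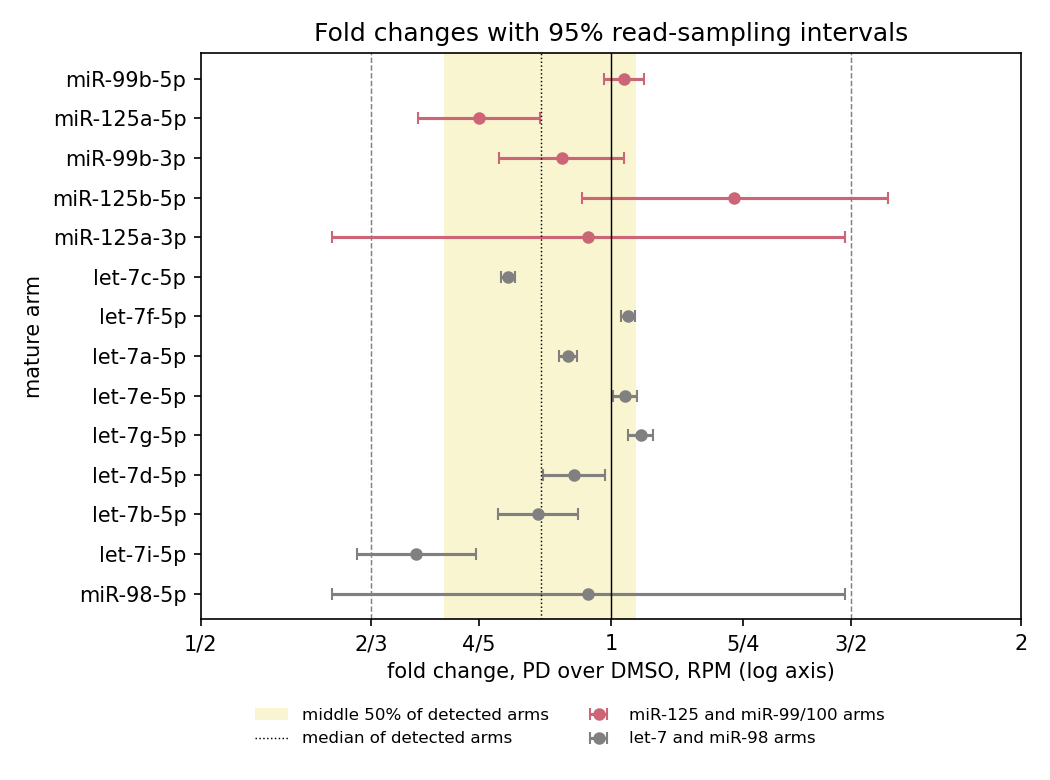
Fold change in RPM, PD over DMSO on a log axis, of the detected miR-125 and miR-99/100 arms and the detected let-7 and miR-98 arms, with 95% intervals from read sampling. The shaded band holds the middle 50% of all detected arms, the dotted line is their median (0.888) and the dashed lines mark 1.5-fold. miR-125a-5p (0.800) is the member whose interval lies below 1, and let-7e-5p (1.02) lies beside miR-99b-5p (1.02).

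miRNAs of other cell types differed in part between the 2 libraries. The neural list (Mir124a and Mir9 hairpins, 6 of 6 annotated) summed to 278 RPM in control and 493 RPM in PD, with 4858 and 9963 reads of Mir124a and 395 and 364 of Mir9. The mesenchymal list (8 of 8 annotated) summed to 767 RPM and 695 RPM, most of it Mir21a (10522 and 10803 reads), Mir143 (2061 and 2295) and Mir199a-1 (1742 and 1292). Mir214 had 0 reads in control and 1 in PD, and Mir10b 15 and 12. miR-125b-5p, miR-99a-5p and miR-100-5p are also known from such cells, and the part of other cells in their levels was not tested.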

How the data were processed

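The authors cut RNA of 18 to 30 nt from a gel, sequenced it, removed low-quality reads and adapters, and deposited 1 table per library of tags with their read counts; the labels name mm9. The tables hold no coordinates. The total in the last line of each was left out. Tags of 18 to 44 nt were matched perfectly to 1174 GENCODE M21 hairpins, split into arms with ViennaRNA 2.7.2, and counted when they overlapped the most frequent tag of the arm by 16 nt or more. Hairpins of one base name, such as Mir125b-1 and Mir125b-2, were merged where they had the same mature tag. Identical arms of hairpins with other base names, such as miR-199a-3p and miR-199b-3p, were kept apart, so some reads count in more than 1 of the 518 arms. Fold changes in RPM were tested with a two-sided exact binomial test (SciPy 1.17.1, Clopper-Pearson intervals, Benjamini-Hochberg over 518 arms), 5p to 3p ratios with Fisher's exact test. Scripts were tested on simulated data. TMM and the exact test came from edgeR 4.0.16 and size factors from DESeq2 1.42.0. The members and lists were chosen with earlier results of these data known. Named genes were both arms of the members, the let-7 list, detected arms with the same seed, the 3 detected arms nearest in level to the most abundant arm of each family, and cell type markers.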

Additional observations from a re-analysis of the deposited data

How the results depend on the processing

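The fold change of the miR-125 family (0.859) was 1.06 with tags identical to the mature form, 0.989 with tags of 21 nt or more, 0.985 on hairpin reads, 1.04 on reads of 20 to 24 nt, 0.961 after TMM and 0.967 with size factors. That of miR-99/100 (1.01) was 1.16, 1.23, 1.13 and 1.14 under those 4 scalings. The number of member arms past 1.5-fold was 3 in place of 0 with no filter on low levels, out of the 9 arms with reads. All 3 had 14 reads or fewer per library and were not among the detected arms. The share of all arms past 1.5-fold without the filter was not computed. In the other alternatives the number of members was 0. The Mir125a 5p to 3p ratio (0.831) turned to 1.28 with identical tags and 1.14 with tags of 21 nt or more, neither passing Fisher's exact test. miR-125a-3p turned to 1.10 on hairpin reads, 1.17 on reads of 20 to 24 nt and 1.08 after TMM and with size factors. miR-99b-3p turned to 1.06, 1.11, 1.03 and 1.04 there and to 1.03 with identical tags. Of 64 alternatives for single arms, 39 kept direction and call. Part of this was fixed in advance, so the count does not measure robustness. Counting all tags of a hairpin, dividing shared tags or using RefSeq mature sequences left the fold change of every detected member as it was. The edgeR test below reuses the same fold changes, so it could alter the call only. The cause of the shifts was not tested beyond what each scaling changes by construction. With a biological coefficient of variation of 0.1 or 0.2 assumed in the exact test of edgeR, no member was called (miR-125a-5p, adjusted p = 0.437 and 1). No paired analysis was possible because each treatment has 1 library.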

Other observations

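By distance of log2 RPM over the 2 libraries, the detected arms nearest to miR-99b-5p were miR-30d-5p (0.0781), miR-295-5p (0.195) and miR-92b-3p (0.228). miR-30d-5p had 6231 reads in control and 6654 in PD. miR-295-5p, from the miR-290-295 cluster of embryonic stem cells, had 6575 and 7922. Nearest to miR-125a-5p were miR-412-5p (0.104), miR-335-5p (0.126) and let-7i-5p (0.157). miR-412-5p had 736 and 675 reads. With 2 libraries, such a likeness is mostly one of level.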
